A study of Mus musculus with 3 samples.

Results

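MYC and 33 genes of ribosome production and cell growth, 34 of the 33696 genes counted, were examined in bone marrow cells of mice that differ in Fabp4, which encodes a fatty acid-binding protein. The genes were a list of symbols, and every symbol was found in the files. They comprised 2 transcription factors, 1 subunit of RNA polymerase I, 5 small nucleolar ribonucleoprotein (snoRNP) proteins, 6 nucleolar proteins, 3 factors of small (40S) and 9 of large (60S) subunit assembly, 4 enzymes of polyamine and nucleotide synthesis, 2 translation initiation factors and 2 mitochondrial chaperones. Single-cell RNA was measured with 10x Chromium 3' libraries in Fabp4 homozygous knockout, Fabp4 heterozygous knockout and wild-type marrow. There was 1 library per genotype, each made from the mixed cells of 2 mice, and no file ties a cell to a mouse. Strain, age and any treatment are not given in the sources used here. The series addresses leukaemia stem cells and normal blood stem cells, but no label says whether these mice carried leukaemia.

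MYC is a transcription factor that binds DNA as a dimer with MAX, best known at the E-box CACGTG, and drives genes that cells need to grow. Ribosome biogenesis takes place in the nucleolus, where RNA polymerase I transcribes ribosomal RNA, snoRNPs modify it, and assembly factors build the small and large subunits. In bone marrow, neutrophil precursors divide and grow while they make primary granules, then stop dividing as they make secondary granules and mature. Mature neutrophils are known for small nucleoli and little protein synthesis.

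The E-box was looked for in RefSeq promoter windows of build GRCm38.p6, which span 250 bases before to 50 after each annotated start. Of the 34 genes, 26 were matched in that table, and Myc, Npm1, Fbl, Rrp12, Rrs1, Srm, Bop1 and Tfap4 were not. CACGTG, which reads the same on both strands, was present in the window of 8 of the 26 (30.8%), beside 2187 of all 27025 genes in the table (8.09%). When CACGCG and CATGTG on either strand were counted as well, 20 of the 26 (76.9%) held a match, beside 30.9% of all genes. A match is a description of the sequence and no measure of binding. The sites are shown because this motif is the one feature of the list that can be read from sequence; CACGTG is in capitals, the strand is that of the gene, and each line runs 5′ to 3′.
Hspd1: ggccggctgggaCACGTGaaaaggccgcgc
Eif4e: ctcgccagcgacCACGTGatcacttttttt
Eif4e: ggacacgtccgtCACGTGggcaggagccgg
Pes1: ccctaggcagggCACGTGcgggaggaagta
Eif4a1: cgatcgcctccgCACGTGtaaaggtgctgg
Mybbp1a: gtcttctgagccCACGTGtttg
Nme1: gctgcggggaacCACGTGaggccggggagc
Nme1: agcttgatacgcCACGTGggctcgcctttg
Wdr43: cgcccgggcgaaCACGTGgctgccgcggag
These stretches lie at chr1:55088306-55088335 (minus strand), chr3:138527028-138527057 and chr3:138527192-138527221 (plus), chr11:3963965-3963994 (plus), chr11:69672595-69672624 (minus), chr11:72441355-72441376 (plus), chr11:93968273-93968302 and chr11:93968037-93968066 (minus), and chr17:71616220-71616249 (plus), in the order listed. In Eif4e the hexamer began 228 and 64 bases before an annotated start inside the gene, whose first base is chr3:138526191. The hexamer began 80 bases before the start of Hspd1 and 189 before that of Eif4a1. It began 18 and 29 bases before the 2 annotated starts of Nme1. It lay 2 bases after the start of Pes1, 17 after an annotated start of Wdr43 and 40 after the start of Mybbp1a.

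For Nop2, an RNA methyltransferase of the large subunit, the whole stretch of 250 bases before the start is given (chr6:125131633-125131882, plus strand), with the hexamer 60 bases before the start.
Nop2: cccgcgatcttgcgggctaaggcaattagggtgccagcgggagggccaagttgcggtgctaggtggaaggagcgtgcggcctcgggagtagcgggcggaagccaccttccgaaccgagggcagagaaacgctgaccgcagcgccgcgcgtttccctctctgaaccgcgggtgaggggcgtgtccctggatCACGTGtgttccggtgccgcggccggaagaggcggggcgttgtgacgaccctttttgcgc

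Kept cells numbered 4318 of 8115 barcodes in the homozygous library, 7957 of 10718 in the heterozygous library and 5604 of 9432 in the wild-type library, with median depths of 9036.5, 7658 and 10058 UMIs per cell in that order. Fabp4 had 5, 38 and 50 UMIs in the same order (0.108, 0.521 and 0.745 UMIs per 1000000 UMIs, CPM). The interval of the homozygous library (0.0352 to 0.253) lay below that of the heterozygous library (0.369 to 0.716). Genotypes were taken from the genotype field, since the sample titles carry only the letters H, K and W, which do not settle which knockout is which. If the field had the knockouts exchanged, all homozygous and heterozygous values would exchange. The libraries stood apart in other ways. Mature neutrophil-like cells were 5.72%, 26.6% and 4.84% of kept cells, and dividing cells 39.8%, 18.5% and 22.4%. Cells with Y-linked RNA and no Xist numbered 142, 4507 and 74, and cells with Xist and no Y-linked RNA 3636, 1148 and 5151. Ribosomal protein genes took 13.7%, 9.98% and 14.9% of UMIs. From 21 to 26 cell barcodes were shared between each pair of libraries. With 1 library per genotype, genotype cannot be told apart from sex, class make-up or library preparation. No test is therefore given between genotypes, and intervals (95%, exact) cover counting error only.

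Cells were sorted into classes by summed markers that are not among the 34 genes. The classes are progenitor-like cells, primary-granule-high cells (Mpo, Elane and related genes), secondary-granule cells (Ltf, Camp, Ngp and others), mature neutrophil-like cells, monocyte-like cells and dendritic-like cells. Secondary-granule and monocyte-like cells were also split by markers of dividing cells. Because each molecule is counted once at its 3' end, CPM can be compared between genes without a length correction. Nme1 lies beside its close copy Nme2, and Npm1, Hspe1, Hspd1, Eif4a1 and Odc1 have close copies elsewhere in the genome. Their levels are uncertain where the counting could split reads between copies.

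Among the 8 classes plotted, the 34 genes took the smallest share of RNA in mature neutrophil-like cells in each of the 3 libraries. They took the largest in primary-granule-high cells of the homozygous and wild-type libraries and in dividing monocyte-like cells of the heterozygous library. Primary-granule-high cells were not split by division among these classes. Their dividing part had 3934 CPM in the heterozygous library, beside 3787 CPM in dividing monocyte-like cells. In primary-granule-high cells their summed level was 4715 CPM in the homozygous library, 3644 in the heterozygous library and 4853 in the wild-type library. Dividing secondary-granule cells had 3556, 2842 and 3718 CPM, non-dividing ones 2865, 1917 and 2663 CPM, and mature neutrophil-like cells 1371, 1291 and 1718 CPM, in the same order of libraries. The level thus went down at each step of the neutrophil series in all 3 libraries. The few T and natural killer-like cells (26, 11 and 16) had 6475, 3901 and 4281 CPM. The few cells past the eosinophil gate (17, 40 and 72) are given no cell type, since their eosinophil markers summed to 1711, 1444 and 1174 CPM and their primary granule markers to 2684, 4140 and 5591 CPM. Plasma cell markers in them summed to 13367, 3252 and 349 CPM. Per cell, the 34 genes gave 69.8, 53.0 and 84.1 UMIs in primary-granule-high cells and 9.89, 9.39 and 12.9 UMIs in mature neutrophil-like cells.

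**Figure D1:**
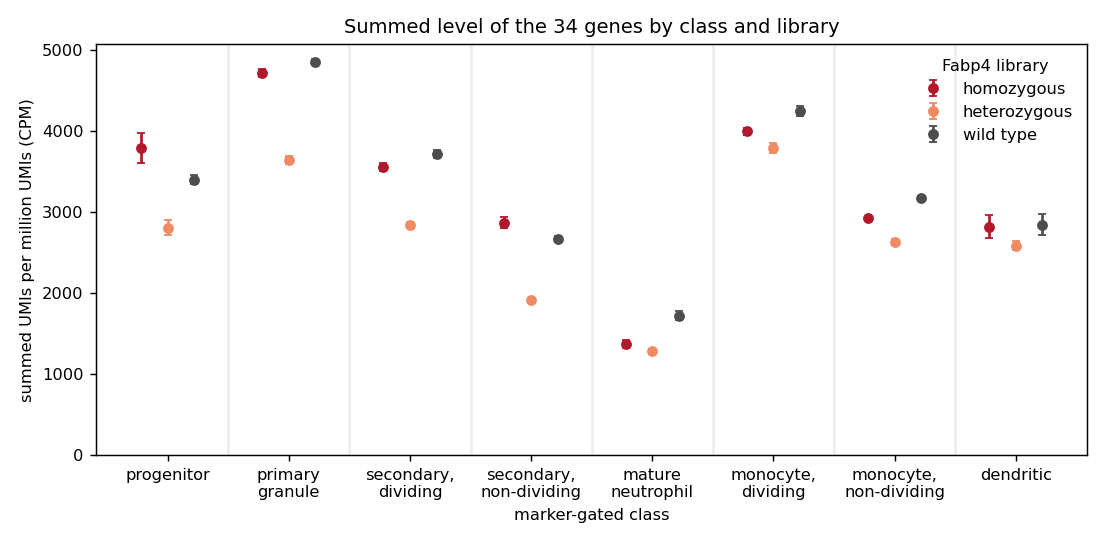
Summed level of the 34 genes (vertical axis, CPM) in 8 marker-gated classes (horizontal axis) of each Fabp4 library. Points are library sums and bars 95% Poisson intervals, often smaller than the point. Primary-granule-high cells are not split by division here. Their dividing part, not plotted, had 3934 CPM in the heterozygous library. Mature neutrophil-like cells stand lowest in every library, primary-granule-high cells highest in the homozygous and wild-type libraries and dividing monocyte-like cells highest in the heterozygous library (3787 CPM), and the heterozygous point is the lowest of the 3 in each of the 8 classes.

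In the monocyte branch, dividing cells had more of the 34 genes than non-dividing cells in each library. Dividing monocyte-like cells had 3994 CPM in the homozygous, 3787 in the heterozygous and 4244 in the wild-type library, and non-dividing ones 2924, 2629 and 3168 CPM. In the heterozygous library the level of dividing monocyte-like cells (3722 to 3853) lay above that of all primary-granule-high cells (3593 to 3695). It did not lie above that of dividing primary-granule-high cells, which had 3934 CPM (3850 to 4020), with overlapping intervals. Dendritic-like cells had 2815, 2584 and 2840 CPM. Progenitor-like cells had 3783 CPM (3599 to 3973) in the homozygous library from 43 cells, 2805 CPM from 137 heterozygous cells and 3393 CPM from 382 wild-type cells. The heterozygous progenitor-like cells also carried megakaryocyte markers at 608 CPM, beside 19.0 CPM in the homozygous and 7.78 CPM in the wild-type library.

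Myc itself was a low-level gene in this marrow. Over all kept cells it stood at 19.4 CPM in the homozygous library, 11.8 CPM in the heterozygous library and 19.3 CPM in the wild-type library, from 895, 862 and 1297 UMIs. Primary-granule-high cells had the highest Myc level of the neutrophil series, at 33.9, 28.8 and 32.5 CPM, with intervals that overlapped between the libraries. Secondary-granule cells had 21.7 CPM (18.5 to 25.3) in the homozygous, 11.5 CPM (10.3 to 12.8) in the heterozygous and 18.7 CPM (16.5 to 21.2) in the wild-type library. The heterozygous library was thus below the others in this class by more than counting error. In mature neutrophil-like cells Myc was at 7.30, 4.75 and 7.84 CPM, from 13, 73 and 16 UMIs, and the intervals overlapped.

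Monocyte-like cells had 11.4 CPM of Myc in the homozygous, 10.7 CPM in the heterozygous and 12.5 CPM in the wild-type library, and the intervals overlapped. Dendritic-like cells had 7.41, 5.84 and 6.21 CPM for Myc, and progenitor-like cells 26.2, 25.3 and 19.3 CPM, in each case with overlapping intervals. The few T and natural killer-like cells had the highest Myc level of any named class in each library, at 81.7, 75.0 and 50.4 CPM, but these rest on 25, 7 and 6 UMIs. The cells past the eosinophil gate, a mixed set by their markers, held 1, 10 and 30 Myc UMIs and were not compared. Cells outside every gate had 34.1 CPM of Myc in the homozygous, 17.6 CPM in the heterozygous and 16.6 CPM in the wild-type library. Ordered by level in the wild-type library, T and natural killer-like, primary-granule-high, progenitor-like, secondary-granule, monocyte-like, mature neutrophil-like and dendritic-like cells followed one another. Of neighbours in that order, the intervals of primary-granule-high and progenitor-like cells and those of secondary-granule and monocyte-like cells did not overlap, and the others did.

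**Figure D2:**
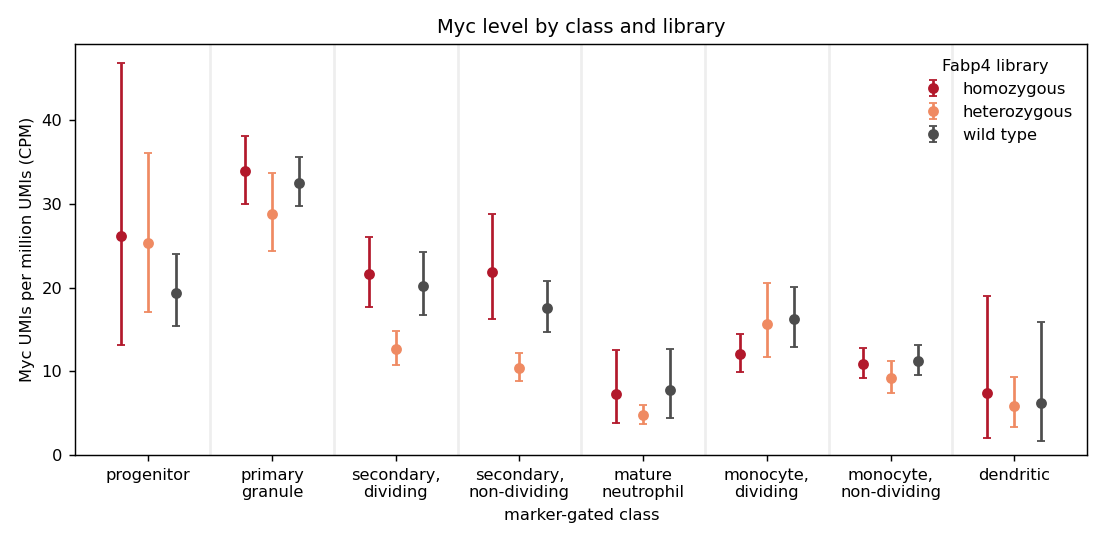
Myc level (vertical axis, CPM) in 8 marker-gated classes (horizontal axis) of each Fabp4 library, with 95% Poisson intervals as bars. Primary-granule-high cells lie between 28.8 and 33.9 CPM and mature neutrophil-like cells between 4.75 and 7.84 CPM, and in dividing and non-dividing secondary-granule cells the heterozygous intervals lie below the others.

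Between mature neutrophil-like and primary-granule-high cells, every one of the 34 genes fell. Counts were summed per library and class and tested with edgeR's quasi-likelihood test, with library as a term and Benjamini-Hochberg adjustment over all genes at a threshold of 0.05. Of the 13304 genes tested, 32.4% fell and 29.8% rose, while 34 of the 34 fell and 0 rose. Their median log2 fold change was -1.48, beside -0.07 over all genes tested. Within single libraries, all 34 were lower in mature neutrophil-like cells with an interval below equality, with medians of -2.04 in the homozygous, -1.90 in the heterozygous and -1.80 in the wild-type library when scaled by library size, beside -0.59, -0.55 and -0.42 over all genes. The 3 libraries are the units of this test although each has its own genotype, and they may share technical spread. The 34 genes were chosen with earlier results of these data known. The contrast with all genes is therefore a description and no independent test, here and in the division and genotype comparisons below.

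Srm, which makes spermidine, fell most. It stood at 6.74 CPM in mature neutrophil-like cells against 54.6 CPM in primary-granule-high cells of the homozygous library, 3.97 against 31.2 CPM in the heterozygous library and 10.3 against 69.4 CPM in the wild-type library. The ranges of the mature and the primary-granule cells did not overlap across libraries. Its fitted log2 fold change was -2.53 ± 0.29 (SE, n = 3 libraries, edgeR adjusted p = 2.31e-07). Nme1, a nucleoside diphosphate kinase, came next with -2.18 ± 0.18 (adjusted p = 8.51e-10). Nop16, a 60S assembly factor (-2.16 ± 0.22), Hspe1, the small subunit of the mitochondrial chaperonin (-2.15 ± 0.17), and Tfap4, a helix-loop-helix factor known as a MYC target (-2.12 ± 0.26), completed the 5 largest falls.

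Myc had 7.30 CPM in mature neutrophil-like cells against 33.9 CPM in primary-granule-high cells of the homozygous library, 4.75 against 28.8 CPM in the heterozygous library and 7.84 against 32.5 CPM in the wild-type library. Its log2 fold change was -1.89 ± 0.21 (edgeR adjusted p = 1.23e-08). The abundant nucleolar proteins fell less than Srm. Npm1, a histone and ribosome chaperone, had 225 against 962 CPM in the homozygous, 163 against 653 CPM in the heterozygous and 267 against 933 CPM in the wild-type library, a change of -1.52 ± 0.11. Ncl, which binds ribosomal RNA, changed by -1.06 ± 0.10. Of the box C/D snoRNP, the methyltransferase Fbl changed by -1.71 ± 0.16, Nop58 by -1.62 ± 0.15 and Nop56 by -1.02 ± 0.12. Polr1b, a core subunit of RNA polymerase I, changed by -1.56 ± 0.29, the 40S factor Wdr43 by -1.25 ± 0.12 and Hspd1, the large chaperonin subunit, by -1.43 ± 0.14.

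**Figure D3:**
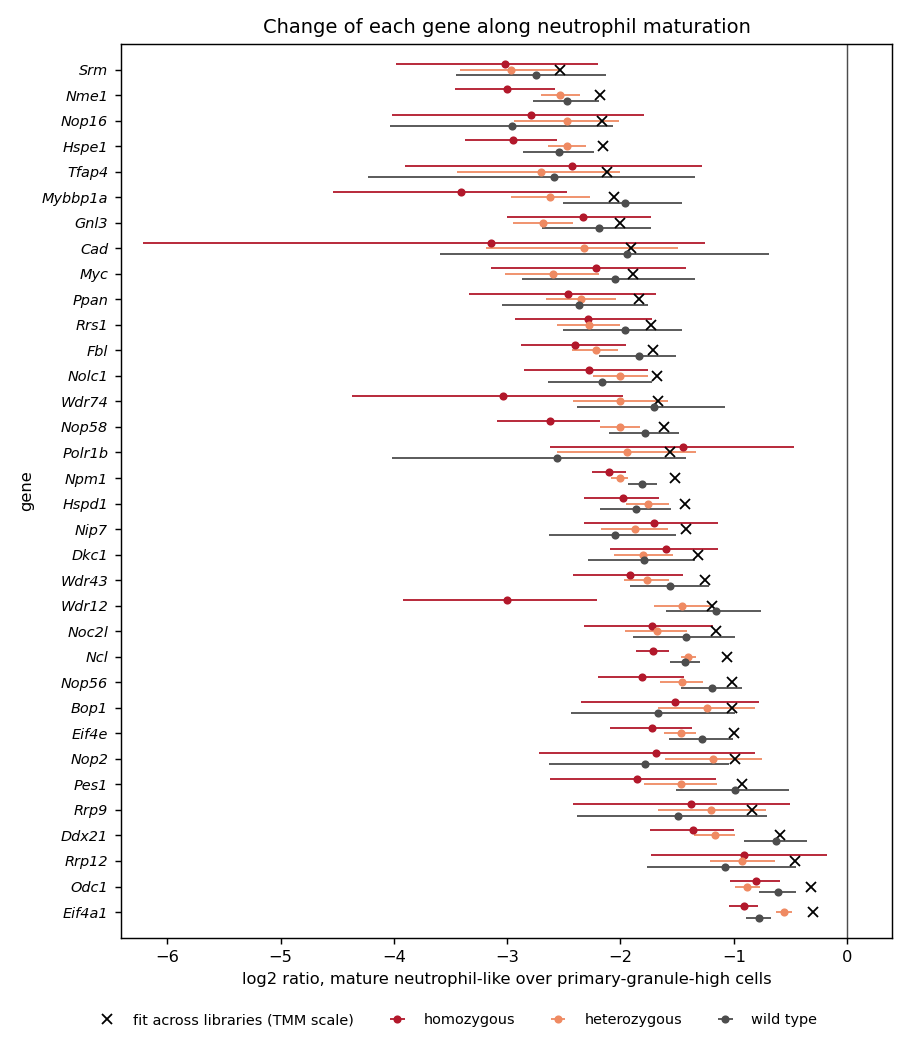
Log2 ratio of mature neutrophil-like over primary-granule-high cells (horizontal axis) for each of the 34 genes (vertical axis, ordered by the fit). Coloured points are ratios within 1 library by library size, with 95% counting intervals, and crosses the fit across libraries on the TMM scale. All points lie below 0, and Srm and Nme1 stand at the top while Eif4a1 and Odc1 stand at the bottom.

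The smallest falls were those of Eif4a1, the cap-complex helicase, Odc1, which makes putrescine, and Rrp12, a factor of 40S export. Eif4a1 had 332 against 625 CPM in the homozygous library, 344 against 507 CPM in the heterozygous library and 355 against 609 CPM in the wild-type library. The fitted log2 fold changes were -0.30 ± 0.10 for Eif4a1 (edgeR adjusted p = 0.0126), -0.32 ± 0.09 for Odc1 (adjusted p = 0.00379) and -0.46 ± 0.18 for Rrp12 (adjusted p = 0.0298). These 3 calls were not firm, as each was lost under at least 1 alternative. Rrp12 was lost when any 1 of the 3 libraries was left out, and Eif4a1 without the homozygous or without the wild-type library. Adjusted p over the fits ran up to 0.539 for Eif4a1, 0.147 for Odc1 and 0.36 for Rrp12.

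The size of the falls depends on the scaling. With library size in place of TMM the median of all genes moved to -0.53 and that of the 34 to -1.93, with 6787 genes falling and 2435 rising in place of 4306 and 3970. Markers of dividing cells moved along the same series, with 588, 392 and 518 CPM in mature neutrophil-like cells and 1752, 1123 and 1255 CPM in primary-granule-high cells of the homozygous, heterozygous and wild-type libraries. In non-dividing primary-granule-high cells the 34 genes summed to 4448, 3458 and 4553 CPM, and in mature neutrophil-like cells to 1371, 1291 and 1718 CPM. Mature neutrophil-like cells were not split by division, and the part of division in the falls was not tested. The part of RNA content per cell in the falls was not tested. Mean UMIs per cell were 7213, 7271 and 7535 in mature neutrophil-like cells and 14803, 14547 and 17325 in primary-granule-high cells.

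**Figure D4:**
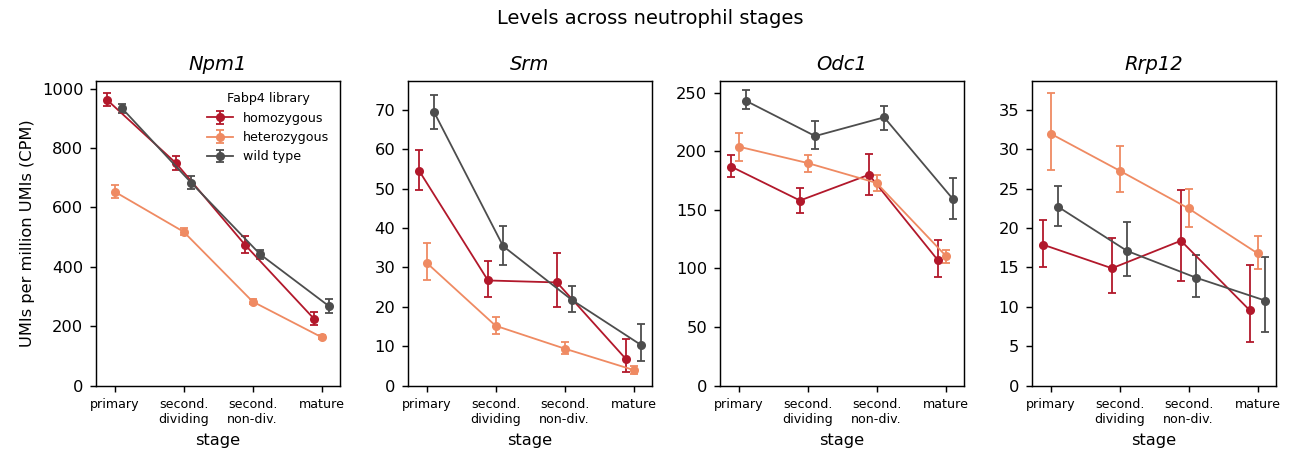
Levels (vertical axes, CPM, each starting at 0) of Npm1, Srm, Odc1 and Rrp12 across 4 neutrophil stages (horizontal axes) in each Fabp4 library, with 95% Poisson intervals. Npm1 goes down at each stage, Odc1 stays between 158 and 243 CPM before the mature stage, and the heterozygous library is lowest for Npm1 and Srm at each stage and highest for Rrp12.

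At the end of division within the secondary-granule stage, 14 of the 34 genes fell in non-dividing against dividing cells and 0 rose. Over all genes tested 15.9% fell and 22.5% rose, and the median log2 fold change was -0.30 for the 34 and 0.09 for all genes. At an unadjusted p under 0.05, and with DESeq2, 0 rose as well. With library size in place of TMM 2873 genes fell and 2188 rose, in place of 2114 and 2992, and 18 of the 34 fell. Tfap4 fell most (-0.84 ± 0.21, edgeR adjusted p = 0.00205). It stood at 10.7 against 17.9 CPM in the homozygous, 3.63 against 7.67 CPM in the heterozygous and 5.86 against 10.6 CPM in the wild-type library. Cad, which starts pyrimidine synthesis (-0.81 ± 0.30), Nop58 (-0.72 ± 0.14), Nme1 (-0.63 ± 0.16) and Nop56 (-0.61 ± 0.11) followed. Npm1, Ncl, Eif4e, Nolc1, Hspd1, Rrs1, Wdr74, Dkc1 and Fbl were the other genes that fell.

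Myc was among those that did not pass at this step, at 21.9 against 21.6 CPM in the homozygous, 10.4 against 12.7 CPM in the heterozygous and 17.6 against 20.2 CPM in the wild-type library (log2 fold change -0.07, edgeR adjusted p = 0.78). Polr1b, Rrp9, Rrp12, Wdr43, Ddx21, Gnl3, Mybbp1a, Noc2l, Wdr12, Bop1, Pes1, Ppan, Nop2, Nop16, Nip7, Srm, Odc1, Eif4a1 and Hspe1 did not pass either. The count moved with the processing. It was 4 without the library term, 25 with halved and 6 with doubled gates, 8 without the heterozygous library and 9 without the wild-type library. In that order 1444 of 13304, 2670 of 14113, 1642 of 12203, 1411 of 13441 and 1696 of 13486 genes fell. Without the library term the share of the 34 was thus close to that of all genes. With doubled gates 1 of the 34 rose, beside 2158 of 12203 genes.

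In monocyte-like cells the same split gave 13 genes that fell and 0 that rose, beside 13.7% and 20.4% of all genes tested. The median was -0.25 for the 34 and 0.11 for all genes. At an unadjusted p under 0.05 edgeR had 1 that was higher, Odc1, and DESeq2 called 1 that rose. With library size in place of TMM 2507 genes fell and 1837 rose, in place of 1826 and 2716, and 16 of the 34 fell. Srm fell most, with 17.5 against 34 CPM in the homozygous, 15.2 against 38.1 CPM in the heterozygous and 26.7 against 41.2 CPM in the wild-type library (-0.82 ± 0.23, edgeR adjusted p = 0.00766). Cad (-0.76 ± 0.26), Nme1 (-0.70 ± 0.16), Nop58 (-0.64 ± 0.13) and Hspd1 (-0.64 ± 0.12) came next. Npm1, Ncl, Nop56, Nolc1, Rrs1, Eif4e, Wdr12 and Nop2 fell as well. Myc (-0.32, adjusted p = 0.178), Tfap4, Polr1b, Fbl, Dkc1, Rrp9, Rrp12, Wdr43, Ddx21, Gnl3, Mybbp1a, Noc2l, Wdr74, Bop1, Pes1, Ppan, Nop16, Nip7, Odc1, Eif4a1 and Hspe1 did not pass. With doubled gates 0 fell and 5 rose, beside 1186 and 1820 of 12203 genes, so this count is not firm. By share, the 5 that rose were close to all genes.

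The 10 genes Cad, Eif4e, Hspd1, Ncl, Nme1, Nolc1, Nop56, Nop58, Npm1 and Rrs1 fell at the end of division in both lineages, which is 71.4% of those that fell in secondary-granule cells and 76.9% of those in monocyte-like cells. The 2 comparisons come from 1 fit and were split by the same division markers. The overlap over all genes tested was not computed, so these shares are a description only.

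Most other genes of ribosome production, on lists of their own, also fell between mature neutrophil-like and primary-granule-high cells. Of all genes tested 32.4% fell and 29.8% rose. Of further 60S assembly factors 27 of 29 fell (median log2 fold change -1.07), and of 40S factors 21 of 27 (median -0.93). All 6 snoRNP partners measured fell, among them Gar1 of the box H/ACA particle (-2.11 ± 0.19). RNA polymerase I subunits and factors fell in 7 of 13. Polyamine and nucleotide enzymes fell in 11 of 14 and rose in 2, with Ctps (-1.87 ± 0.25), Impdh2 (-1.61 ± 0.13) and Paics (-1.60 ± 0.15) among those that fell, all 3 of them enzymes of nucleotide synthesis. Cap-binding and initiation genes were mixed, with 4 of 9 falling and 3 rising. Of nucleolar stress genes 3 of 6 fell and 1 rose. No difference from all genes is read from these short lists. At the end of division fewer passed. In secondary-granule cells 14 of the 29 60S factors and 7 of the 27 40S factors fell, beside 15.9% of all genes. In monocyte-like cells 5 and 6 of them fell, beside 13.7% of all genes, and the 60S share was near it.

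The network around MYC was mixed, with 5 of 15 tested genes rising and 3 falling, beside 29.8% and 32.4% of all genes. The share that rose was thus near that of all genes. Mxd1, which competes with MYC for MAX and represses its targets, rose by 3.15 ± 0.19 (log2, edgeR adjusted p = 1.49e-11), with 517 CPM in the homozygous, 591 in the heterozygous and 397 in the wild-type library in mature neutrophil-like cells, against 63.1, 99 and 72.0 CPM in primary-granule-high cells. It also rose in non-dividing against dividing secondary-granule cells (1.54 ± 0.18) and in non-dividing against dividing monocyte-like cells (0.69 ± 0.18). Max itself, named here after its values were seen, rose by 1.51 ± 0.13, 1.07 ± 0.13 and 0.54 ± 0.12 in these 3 comparisons. Mxd3, a family member tied to dividing cells, fell in all 3, with log2 fold changes of -0.76 ± 0.25, -4.12 ± 0.24 and -3.62 ± 0.20. Ruvbl1, an ATPase that takes part in MYC complexes and in snoRNP assembly, fell as well, with -1.46 ± 0.15, -0.60 ± 0.14 and -0.72 ± 0.13. Mycn was close to absent, with 7, 1 and 5 UMIs over all kept cells of the homozygous, heterozygous and wild-type libraries.

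Between genotypes, the heterozygous library had less of nearly all the 34 genes than the wild-type library. Summed over all kept cells they made up 2361 CPM in the heterozygous and 3663 CPM in the wild-type library, and 33 of 34 were lower. At least 1.5-fold lower, with at least 20 UMIs in the 2 libraries together, were 26 of 34 (76.5%), beside 17.6% of all 17412 genes with that minimum. The median log2 ratio was -0.77, beside -0.14 over all genes. Because the 34 genes were chosen with earlier results of these data known, such contrasts with all genes are descriptions only. This holds for every genotype comparison below. Srm was lowest, at 13.2 CPM in the heterozygous and 37.5 CPM in the wild-type library (log2 ratio -1.50, interval -1.61 to -1.40). By the interval bound nearest to equality, Nop16 (-1.17), Hspe1 (-1.07) and Mybbp1a, a nucleolar MYB-binding protein (-1.08), followed.

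Rrp12 was the only one of the 34 that was higher, with 25.8 CPM in the heterozygous and 21.2 CPM in the wild-type library (0.28, interval 0.18 to 0.38). It was also higher within each of the 5 classes compared, by 0.19 to 0.71. Eif4a1 (-0.30), the cap-binding protein Eif4e (-0.32) and the RNA helicase Ddx21 (-0.34) were the genes nearest to equality on the lower side. Differences between role groups were not tested. Median log2 ratios were -1.01 for the 4 polyamine and nucleotide enzymes, -1.01 for the 2 chaperones, -0.77 for the 60S factors, -0.75 for the snoRNP proteins, -0.73 for the nucleolar proteins, -0.67 for the 40S factors and -0.31 for the 2 initiation factors. Myc was at 11.8 against 19.3 CPM, a ratio of -0.71.

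The heterozygous library held more mature neutrophil-like and secondary-granule cells than the wild-type library. With the class make-up of the wild-type library imposed, the median was -0.46, 33 of 34 were still lower and 7 of 34 passed 1.5-fold, beside 9.32% of all genes. Among cells with Xist and no Y-linked RNA the median was -0.60 and 33 of 34 were lower. Sex and genotype cannot be told apart in these libraries.

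Within classes, the heterozygous library was lower as well, but by less and for fewer genes past 1.5-fold. In primary-granule-high cells 32 of 34 were lower, with a median of -0.48 (medians of the interval bounds -0.64 and -0.23), and 11 passed 1.5-fold lower, beside 10.9% of all genes. In secondary-granule cells the median was -0.56 and 13 passed lower, beside 12.8% of all genes, while 1 passed higher, Rrp12, beside 8.64% of all genes. In mature neutrophil-like cells the median was -0.58 and 16 passed lower, beside 17.3% of all genes, and again 1 passed higher, Rrp12, beside 10.9%. In monocyte-like cells the median was -0.30 and 2 passed lower, Ppan and Nop56, beside 7.97% of all genes. In progenitor-like cells 10 passed lower, beside 9.73% of all genes, with a median of -0.31. Of the 34 genes, 27 were lower in all 5 classes. The share of all genes lower in all 5 was not computed, so this count is a description only. Some of the ratios were within counting error. Intervals lay below equality for 14 of the 34 in progenitor-like and 17 in mature neutrophil-like cells. They did so for 27 in primary-granule-high, 30 in secondary-granule and 27 in monocyte-like cells, beside 17.8%, 28.4% and 22.6% of all genes. The medians over all genes in the 5 classes lay between -0.11 and 0.02.

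Secondary-granule cells, the largest class in this pair, show the spread between genes. Srm had 12.1 CPM in the heterozygous and 27.6 CPM in the wild-type library (-1.19, interval -1.41 to -0.97), Nop16 8.42 and 16.9 CPM (-1.01), Hspe1 65.6 and 126 CPM (-0.95) and Nme1 89.6 and 155 CPM (-0.79). At the other end, Wdr12 of the large subunit had 27.8 and 27.5 CPM (0.02, -0.17 to 0.20), the pseudouridine synthase Dkc1 34.4 and 36.0 CPM (-0.07, -0.23 to 0.09) and Eif4e 97.0 and 103 CPM (-0.08, -0.17 to 0.02). For these 3 genes the difference was within counting error. Rrp12 had 24.8 and 15.1 CPM (0.71, 0.48 to 0.94).

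Markers of other cells moved with these results. Secondary-granule markers summed to 4069 CPM in heterozygous and 2358 CPM in wild-type primary-granule-high cells, to 2673 and 817 CPM in progenitor-like cells and to 2549 and 2317 CPM in monocyte-like cells. In the progenitor-like class erythroid markers were at 151 CPM in the heterozygous and 1.65 CPM in the wild-type library. The part of these cells or of free RNA in the ratios was not tested. In primary-granule-high cells the median was -0.21 among cells with Xist and no Y-linked RNA, with 27 of 34 lower, and -0.66 when classes came from clusters.

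**Figure D5:**
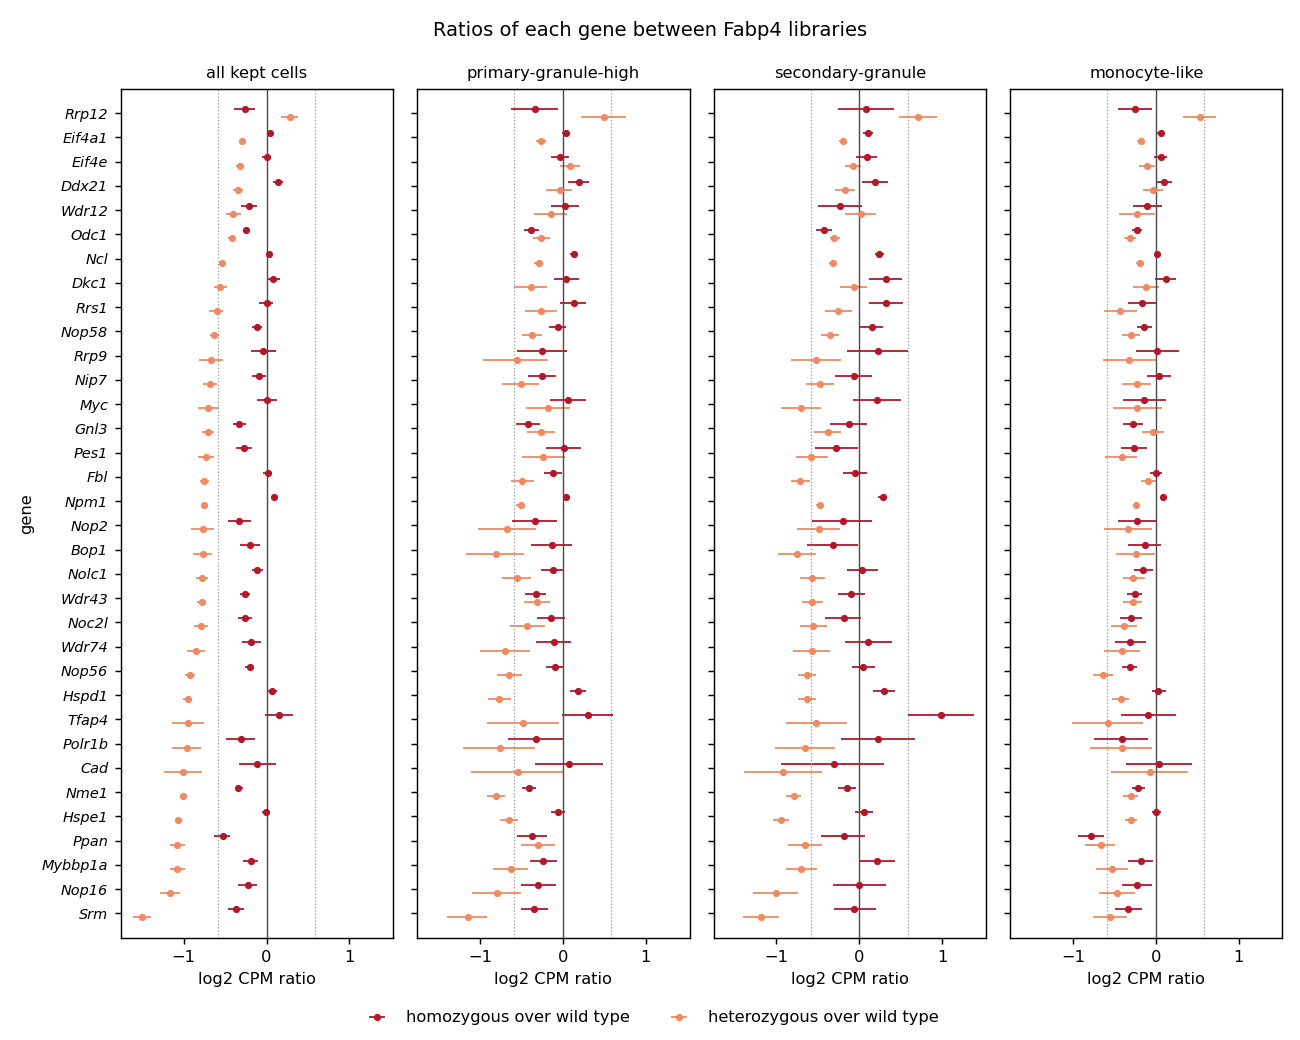
Log2 CPM ratio to the wild-type library (horizontal axes) for each of the 34 genes (vertical axis, ordered by the heterozygous ratio over all kept cells), for homozygous and heterozygous libraries, over all kept cells and in 3 classes. Bars are 95% counting intervals and dotted lines mark 1.5-fold. Heterozygous points lie below 0 for all genes but Rrp12 over all kept cells, while homozygous points lie on both sides of 0.

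The homozygous library was much closer to wild type. The 34 genes summed to 3558 CPM in the homozygous and 3663 CPM in the wild-type library, and the median log2 ratio was -0.15, with 25 lower. None passed 1.5-fold in either direction, beside 9.62% of all genes lower and 11.5% higher. The sign of the median did not hold under every setting, being 0.00 with equal weight per cell and 0.15 among cells with Y-linked RNA and no Xist. Ppan, a 60S factor, was lowest, at 29.8 CPM in the homozygous and 43.1 CPM in the wild-type library (-0.53, interval -0.63 to -0.44), followed by Nme1 (-0.34), Srm (-0.37) and Gnl3, a nucleolar GTPase (-0.33), by the bound nearest to equality. Ddx21 (0.14), Npm1 (0.09), Hspd1 (0.07) and Eif4a1 (0.04) were the highest by the same bound, while Tfap4 (0.15, interval -0.02 to 0.32) was within counting error.

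Within classes the homozygous library showed the same small differences, apart from mature neutrophil-like cells. In primary-granule-high cells the median was -0.12 and 0 passed 1.5-fold, beside 10.7% of all genes lower and 8.91% higher. In secondary-granule cells the median was 0.05 and 1 passed higher, Tfap4 (0.98, with 15.6 CPM in the homozygous and 7.90 CPM in the wild-type library), beside 10.1% of all genes. With classes from clusters this median was -0.44, so its sign is not settled. In monocyte-like cells, the largest class in this pair, the median was -0.14 and 1 passed lower, Ppan, with 24.1 CPM in the homozygous and 41.5 CPM in the wild-type library (-0.78, interval -0.94 to -0.63), beside 9.15% of all genes. By the interval bound nearest to equality, Nop56 (-0.31), Noc2l, a factor of large-subunit export (-0.30), and Odc1 (-0.23) came after it. By the same bound Npm1 (0.09), Eif4a1 (0.06), Ddx21 (0.10) and Dkc1 (0.12) were the highest, and the interval of Dkc1 (-0.01 to 0.25) held 0.

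In mature neutrophil-like cells, from 247 homozygous and 271 wild-type cells, 30 of the 34 genes reached the count minimum. Their median was -0.47, and 10 passed 1.5-fold lower, beside 14.8% of all genes. The medians of the interval bounds were -1.18 and 0.05, so most of these ratios were within counting error. Of the 30 genes that could be compared in all 4 classes, 8 were lower in the homozygous library in each class, namely Gnl3, Wdr43, Srm, Odc1, Nme1, Ppan, Nop2 and Noc2l. Dkc1 and Hspd1 were higher in each. Some of these ratios were close to equality, reaching -0.06 for Srm, 0.04 for Dkc1 and 0.03 for Hspd1. How many of all genes kept 1 direction in the 4 classes was not computed, so these counts are a description only.

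Set against the heterozygous library, the homozygous library had more of 33 of the 34 genes over all kept cells, with 3558 CPM in the homozygous and 2361 CPM in the heterozygous library. The median was 0.61, and 19 passed 1.5-fold higher, beside 21.8% of all genes. Most genes were higher in this pair, with a median of 0.22 over all genes and 34% of them lower. Srm had 29.1 CPM in the homozygous and 13.2 CPM in the heterozygous library (1.14, interval 1.02 to 1.26), followed by Hspe1 (1.05), Hspd1 (1.02) and Tfap4 (1.10). Rrp12 was lower, with 17.7 and 25.8 CPM (-0.54), while Odc1 (0.17), Wdr12 (0.19) and Eif4a1 (0.34) followed it at the low end by their upper interval bounds. With the class make-up of the heterozygous library the median was 0.35.

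Within classes this pair differed most in secondary-granule cells, where 16 passed higher, beside 14.0% of all genes. In primary-granule-high cells 5 passed higher, beside 9.70%, in mature neutrophil-like cells 6, beside 11.4%, and in monocyte-like cells 0, beside 10.6%. Monocyte-like cells, the largest class here, had Npm1 at 716 CPM in the homozygous and 569 CPM in the heterozygous library (0.33), Hspd1 at 106 and 77.4 CPM (0.46), Hspe1 at 215 and 174 CPM (0.31) and Nop56 at 74.5 and 59.4 CPM (0.33). Rrp12, at 16.9 and 28.9 CPM (-0.77), and Gnl3, at 47.5 and 56.0 CPM (-0.24), were lower in the homozygous library. The ratios of Ppan (-0.12) and Wdr43 (0.03) were within counting error. The 3 genotype comparisons share libraries, so they are not independent of each other.

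Wider pathway lists were also lower in the heterozygous library, with smaller medians. In secondary-granule cells 28 of 29 further 60S factors were lower in the heterozygous than in the wild-type library (median -0.39, 6 past 1.5-fold), as were 25 of 27 40S factors (median -0.30, 5 past 1.5-fold) and 6 of 6 snoRNP partners (median -0.41, 1 past 1.5-fold). Of all genes in that class 55.6% were lower and 12.8% passed 1.5-fold lower, with a median of -0.05. In monocyte-like cells the medians of these lists were -0.15, -0.16 and -0.22. They were -0.25, -0.22 and -0.53 in primary-granule-high and -0.21, -0.10 and -0.52 in progenitor-like cells. The 34 genes had -0.48 and -0.31 there, so the snoRNP partners did not have smaller medians. Polyamine and nucleotide enzymes had -0.49 in primary-granule-high cells. The 14 genes of the MYC network that could be compared in secondary-granule cells had a median of 0.04. This list had 0.18 in primary-granule-high and 0.13 in progenitor-like cells. RNA polymerase I genes had -0.24 in primary-granule-high and 0.18 in progenitor-like cells. In the homozygous library the 60S, 40S, snoRNP and MYC network lists had medians of 0.13, 0.12, 0.14 and 0.02 in secondary-granule cells.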

How the data were processed

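The authors deposited raw UMI counts for each gene in each barcode, made from 10x Chromium 3' v3 libraries per the labels' protocols with Cell Ranger 8.0.1 per the file headers. The submitters' processing notes list STAR and mm10, and the annotation release is not given in the sources used here. Groups follow the genotype field of the labels and not the letters in the sample titles, which are ambiguous. The genes and lists were chosen with earlier results of these data known.

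A barcode was kept with 500 UMIs or more, 200 genes or more and a mitochondrial share under 10%. Doublets were left in. Marker sums per 10000 UMIs gated the classes, in this order with later gates overriding: progenitor 4 (and 3 marker UMIs), primary granule 40, monocyte 20, secondary granule 100, mature neutrophil 40, eosinophil 5, dendritic 40, T and natural killer 20. Dividing cells had 12. These thresholds were set after the marker sums were seen. Cells outside every gate were 21.9% of the homozygous, 12.8% of the heterozygous and 21.9% of the wild-type library.

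CPM were computed from summed UMIs, with Garwood intervals for levels and exact conditional intervals for ratios. Ratios needed 20 UMIs in both libraries together and classes with 100 cells in each library. Maturation was tested with edgeR 4.0.16 (filterByExpr, TMM, robust quasi-likelihood, R 4.3.3) on sums per library and class over the 8 classes with 30 cells in each library, with DESeq2 1.42.0 as an alternative. Code was tested on simulated data. Other tools were Python 3.11.15, numpy 2.4.6, scipy 1.17.1, pandas 2.3.3, scanpy 1.11.5 and matplotlib 3.10.9.

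Named genes were, for genotypes, the 4 highest and 4 lowest by the interval bound nearest to equality over all kept cells and in the largest class, and for maturation the 5 largest falls and all that did not pass, plus members of each role and pathway genes past 1.5-fold in every comparison, at most 3 a list. Other genes that make up a count of 2 or fewer were named after their values were seen.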

Additional observations from a re-analysis of the deposited data

Results flagged for a closer look

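Barcodes left out for a mitochondrial share of 10% or more also held RNA of the 34 genes. Their summed level was 4196 CPM in 3797 such barcodes of the homozygous library, 3412 CPM in 2760 of the heterozygous library and 4398 CPM in 3828 of the wild-type library. Each value drew attention because it comes from barcodes outside the comparisons and is above the limit that a count of 0 allows. As CPM of non-mitochondrial UMIs the levels were 5307, 4457 and 5794 in the barcodes left out, against 3668, 2420 and 3790 in the kept cells of the same libraries. The order of the libraries was the same in both. No class was assigned to these barcodes.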

How the results depend on the processing

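Values of the 34 genes are medians of log2 ratios unless counts are named. Over all kept cells, the homozygous over wild-type median of -0.15 was 0.00 with equal weight per cell and 0.15 with Y-linked RNA only. The heterozygous over wild-type median of -0.77 was -0.84 with a denominator without mitochondrial, ribosomal protein and granule genes, -0.67 with Y-linked RNA only, -0.60 with Xist only, -0.61 in dividing cells and -0.46 at wild-type class make-up, and stayed below 0 in all 13 alternatives. The homozygous over heterozygous median of 0.61 was 0.77 with equal weight, 0.47 with Xist only, 0.34 in dividing cells and 0.35 at heterozygous make-up. Within classes, Leiden clusters gave -0.44 for homozygous over wild-type secondary-granule cells and -0.66 for heterozygous over wild-type primary-granule-high cells, and Xist only gave -0.21 for the primary-granule-high pair. The number that fell in mature neutrophil-like cells was 32 to 34 in all alternatives, and 32 to 33 when 1 library was left out. For secondary-granule division it was 4 without the library term, 25 and 6 (1 rose) with gates halved and doubled, and 8 to 12 with 1 library left out, against 14. For monocyte division it was 3, 25, 0 (5 rose) under the same settings, against 13. It was 22 with only the classes compared in the fit and 9 to 12 with 1 library left out. Of all genes, 1233 of 13304, 2312 of 14113 and 1186 of 12203 fell under the same settings, and 2958 of 12823 with only these classes. With the homozygous, heterozygous or wild-type library left out, 1274 of 13383, 1381 of 13441 and 1800 of 13486 genes fell. Promoters with an E-box numbered 20 against 8 with the other motifs added. For single genes in the homozygous over wild-type ratio, the sign turned for Srm (0.26) and Rrp12 (1.30) and Ncl (-0.23) with Y-linked RNA only, for Rrp12 (0.11) and Npm1 (-0.03) with equal weight, for Npm1 (-0.04) and Ncl (-0.08) in non-dividing cells, and for Ncl in dividing cells (-0.04) and with the other denominator (0.00). The cause of these shifts was not tested. Scrublet's threshold marked at most 0.036% of cells, so 280, 682 and 423 top scores were removed instead in the homozygous, heterozygous and wild-type libraries. Cells with Y-linked RNA only gave no value in classes with under 30 cells. No paired analysis of genotypes was possible because they share only replicate number 1. The maturation fit, with library as a term, compared classes within libraries. Precision is limited by counts, for example 5 UMIs of Tfap4 in wild-type mature neutrophil-like cells. The alternative without ungated cells was chosen after seeing the data.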
